A study of Homo sapiens with 6 samples.

Results

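The genes described carry the symbols of G protein-coupled receptors of several kinds. They are adhesion receptors (symbols starting with ADGR and a letter and number) and genes that still carry an orphan-style GPR number. A named set of receptors for peptides, proteases and lipids (NTSR1, F2R, F2RL1, BDKRB2, OXTR, LPAR1 to LPAR3, S1PR1 to S1PR3) was added, with the adenosine receptor ADORA2B. Whether each GPR-numbered gene encodes such a receptor was not examined, and receptor is used for them by symbol. The symbol rule found 23 ADGR rows, 42 GPR rows and all 12 named receptors, 77 of the 18539 rows of the deposited table, by symbol alone. Of the 23 ADGR rows, 20 are receptor genes and 3 are not: ADGRE4P and ADGRF5P1 are pseudogenes and ADGRD1-AS1 is a long non-coding RNA. A low-read filter passed 66 of the 77, which are 65 genes counted as receptor genes and the pseudogene ADGRF5P1. The 11 that did not pass (GPR1, GPR25, GPR35, GPR174, GPR179, GPR182, ADGRB1, ADGRG2, ADGRG3, ADGRE4P and ADGRD1-AS1) had between 1 and 18 reads in each library, where 1 is the lowest value that any library of the table holds. ADGRG3 was the clearest of these, with 12, 10 and 18 reads in the shControl libraries and 1 in each shMMP9 library, and it has no test.

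Total RNA came from A375, a human malignant melanoma cell line, in which lentivirus had delivered a short hairpin RNA, either a control (shControl, 3 libraries) or 1 hairpin against the coding region of matrix metalloproteinase 9 (shMMP9, 3 libraries). All cells had been selected in puromycin, and the labels name no clones and no hairpin of a different sequence against the same gene. The series title links the protease to clipping of histone H3 tails and to a transcription program of melanoma. MMP9 was at 26.1, 24.3 and 28.7 in the shControl libraries and 16.2, 14.6 and 17.1 in the shMMP9 libraries, and it fell by 0.69 in log2 units (limma, SE 0.08, adjusted p = 1.25e-05). Its transcript was still read in every shMMP9 library. Whether the replicates were separate cultures is not in the labels, and each p-value therefore reflects only how far these libraries spread, which may be technical.

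G protein-coupled receptors span the plasma membrane with a bundle of helices, and on binding a ligand they switch heterotrimeric G proteins that act on second messengers such as cyclic AMP and calcium. Adhesion receptors carry a long extracellular part that many of them cut off themselves, and the stub that remains can act as a tethered activator. Protease receptors such as F2R are switched on in a related way when a protease cuts their own end. Lipid receptors of the S1PR and LPAR families read sphingosine 1-phosphate and lysophosphatidic acid, which are made outside or exported from cells.

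The starts of 6 of these genes are printed because the sphingosine receptors moved in different directions from each other, and because NTSR1, GPR153 and LPAR1 were among the genes that moved most. Each run is the 250 bases before the RefSeq start (GRCh38.p14), 5′ to 3′ on the strand of the gene, with capitals marking matches to the motifs searched. NTSR1 lies at chr20:62708586-62708835 on the plus strand and GPR153 at chr1:6261099-6261348 on the minus strand. The S1PR1 run is chr1:101236769-101237018 (plus), that of S1PR2 is chr19:10231332-10231581 (minus) and that of S1PR3 is chr9:88990613-88990862 (plus). The LPAR1 run is chr9:111038999-111039248 on the minus strand. Part of the S1PR1 run lies inside the gene as GENCODE draws it.
NTSR1: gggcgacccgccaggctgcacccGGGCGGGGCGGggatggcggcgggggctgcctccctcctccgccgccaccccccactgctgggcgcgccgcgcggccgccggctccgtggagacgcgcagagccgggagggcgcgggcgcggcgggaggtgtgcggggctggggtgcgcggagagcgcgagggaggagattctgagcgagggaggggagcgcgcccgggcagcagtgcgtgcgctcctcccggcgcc
GPR153: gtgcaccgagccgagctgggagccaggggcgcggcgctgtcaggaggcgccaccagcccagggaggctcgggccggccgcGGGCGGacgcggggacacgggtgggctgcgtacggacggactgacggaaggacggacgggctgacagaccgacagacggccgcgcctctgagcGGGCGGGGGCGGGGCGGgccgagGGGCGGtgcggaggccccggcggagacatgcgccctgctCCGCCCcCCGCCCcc
S1PR1: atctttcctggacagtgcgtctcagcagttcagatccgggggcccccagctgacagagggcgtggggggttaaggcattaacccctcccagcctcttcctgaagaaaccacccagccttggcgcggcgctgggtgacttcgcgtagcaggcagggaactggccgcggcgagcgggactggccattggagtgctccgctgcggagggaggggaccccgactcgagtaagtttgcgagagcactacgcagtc
S1PR2: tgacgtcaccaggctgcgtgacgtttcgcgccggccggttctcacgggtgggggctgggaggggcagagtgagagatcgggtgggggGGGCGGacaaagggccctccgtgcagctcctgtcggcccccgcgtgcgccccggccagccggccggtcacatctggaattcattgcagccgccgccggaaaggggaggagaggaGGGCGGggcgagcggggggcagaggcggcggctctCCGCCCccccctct
S1PR3: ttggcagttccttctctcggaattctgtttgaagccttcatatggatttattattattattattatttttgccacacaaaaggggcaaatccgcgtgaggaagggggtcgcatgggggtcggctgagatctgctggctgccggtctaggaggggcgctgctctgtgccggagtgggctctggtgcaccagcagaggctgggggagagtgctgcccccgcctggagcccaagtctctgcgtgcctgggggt
LPAR1: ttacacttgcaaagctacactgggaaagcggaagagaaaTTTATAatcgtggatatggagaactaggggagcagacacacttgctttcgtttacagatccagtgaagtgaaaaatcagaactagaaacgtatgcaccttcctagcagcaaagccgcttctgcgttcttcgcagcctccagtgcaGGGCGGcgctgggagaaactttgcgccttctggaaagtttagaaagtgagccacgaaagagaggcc

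Levels are scaled counts, with an upper quartile of 45.3 to 45.4 in every library, and the libraries held 21854113 to 28005538 estimated reads. A change is shMMP9 minus shControl on the scale of log2(scaled count + 1), on which weakly expressed genes appear to change less than their ratio shows. A gene is called higher or lower at an adjusted p under 0.05 (limma, Benjamini-Hochberg over 17194 genes tested). Among the 66 tested receptor rows, 20 were higher (30.3%) and 27 were lower (40.9%) in shMMP9, where 25% and 32.5% of all genes tested were called in those directions. The excess of lower calls among all genes depends on the scaling: 4304 were higher and 5584 lower here, whereas scaling by the median of ratios gave 4949 higher and 4946 lower, and scaling by total reads gave 4988 higher and 4898 lower. With either of those, 22 receptor rows were higher and 27 were lower. For a log2 change of 1 or more, 3 receptors were higher (NTSR1, GPR153 and S1PR3) against 3.22% of all genes tested. Another 10 were lower by that size (S1PR1, GPR63, ADGRL2, ADGRB2, F2R, LPAR1, ADGRB3, GPR162, LPAR2 and GPR176), against 4.96% of all genes tested. The libraries of the groups did not overlap for 49 of the 66 rows (74.2%), and for 62.7% of all genes tested. The median change of the 66 rows was -0.08, and that of all genes tested was -0.05. The median size of a change, whatever its direction, was 0.55 for these rows and 0.28 for all genes tested. Mitochondrial genes (symbols in MT-) took 1.64 to 1.79% of the estimated reads in the shControl libraries and 0.62 to 0.71% in the shMMP9 libraries, and the part of this difference in the receptor results was not tested.

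**Figure D1:**
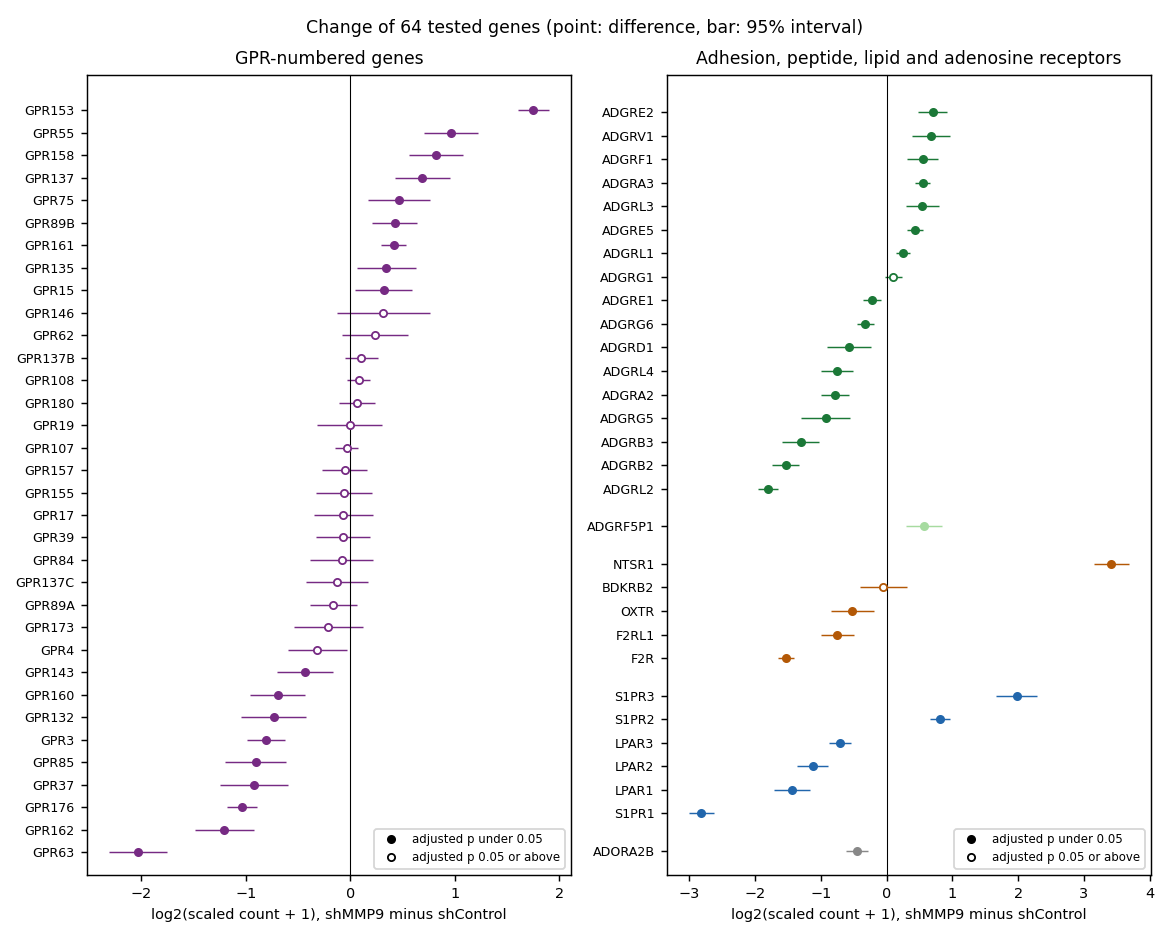
Difference of log2(scaled count + 1) between shMMP9 and shControl for 64 of the 66 tested rows, ADGRF5P1 (pale green) among them, with the 95% interval of each difference; the other 2 are not drawn, and filled points have an adjusted p under 0.05. NTSR1 stands farthest to the right at 3.42 and S1PR1 farthest to the left at -2.82, and open points mark genes that were not called.

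Among the sphingosine 1-phosphate receptors, S1PR1 fell while S1PR2 and S1PR3 rose. S1PR1 (ENSG00000170989.9, chr1:101236865-101243713, plus strand), a Gi-coupled receptor known for guiding the exit of lymphocytes and for keeping vessels tight, was at 35.8, 40.2 and 41.8 in the shControl libraries and 4.57, 4.80 and 4.73 in the shMMP9 libraries. The groups were far apart, and the mean in shMMP9 was 0.120 times that in shControl. S1PR1 fell by 2.82 in log2 units (SE 0.09, adjusted p = 1.57e-11), the largest fall among the tested receptors on that scale. By ratio of means ADGRB3, a weakly expressed gene, fell further, to 0.0619 times its shControl mean. S1PR2 (ENSG00000267534.3, chr19:10221433-10231331, minus strand), which is known to slow cell migration, was at 15.8, 17.7 and 17.1 in the shControl libraries and 29.8, 30.4 and 30.9 in the shMMP9 libraries. All 3 shMMP9 libraries were above all 3 shControl libraries, and S1PR2 rose by 0.81 (SE 0.07, adjusted p = 4.56e-07). S1PR3 (ENSG00000213694.4, chr9:88990863-89005010, plus strand), which couples broadly, was at 1.03, 0.520 and 0.896 in the shControl libraries and 6.41, 5.31 and 6.61 in the shMMP9 libraries. It rose from a level near 1 by 1.98 (SE 0.14, adjusted p = 7.61e-08), with 69 reads in the shControl libraries together and 504 in the shMMP9 libraries.

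Per kilobase of exons, S1PR1 made up 61.6% ± 0.99 of the summed level of the 3 sphingosine receptors in shControl and 9.29% ± 0.20 in shMMP9 (SD, n = 3). The share of S1PR2 went from 37.9% ± 1.01 to 86.1% ± 0.31, and that of S1PR3 from 0.50% ± 0.19 to 4.65% ± 0.51. The shares of each receptor did not overlap between the groups, and the exact permutation test of each (two-sided) gave p = 0.1, the smallest that 3 against 3 can give. The summed level was 12.2 ± 0.83 per kilobase in shControl and 9.68 ± 0.18 in shMMP9 (exact permutation p = 0.1). The exons annotated for S1PR3 cover 13578 bases, against 5223 for S1PR1 and 3643 for S1PR2, which lowers S1PR3 on the per-kilobase scale. On scaled counts without length, S1PR3 made up 1.45% in shControl and 14.8% in shMMP9, and S1PR1 68.9% and 11.4%.

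S1PR1 is also a well-known gene of endothelial cells, so markers of that cell type were summed: 9 of 10 listed genes had a row. Their sum was 68.3 to 78.1 scaled counts over the shControl libraries and 33.4 to 35.1 over the shMMP9 libraries. TIE1, an endothelial receptor kinase, held most of the shControl sum at a mean of 49.9 and was at 4.56 in shMMP9. KDR, a receptor for vascular growth factor, rose by 1.20 (adjusted p = 1.32e-07) from a mean of 6.44 to 16.1. Without TIE1, a choice made after its values were seen, the sum was 21.8 to 24.7 in shControl and 29.4 to 29.98 in shMMP9. The largest part of that sum was EGFL7 in shControl and KDR in shMMP9. EGFL7 fell by 0.47 (adjusted p = 0.00178) on means from 12.2 to 8.60. Of the 8 endothelial genes tested, 2 were higher (25%) and 3 were lower (37.5%), beside 25% and 32.5% of all genes tested. The defining marker PECAM1 had means of 1.19 in shControl and 2.05 in shMMP9, and CDH5 0.769 and 0.110. Whether the sum has a part in the S1PR1 result was not tested. In bulk RNA, fewer cells that carry a transcript and less of it per cell cannot be told apart.

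The lysophosphatidic acid receptors LPAR1, LPAR2 and LPAR3 all fell. LPAR1 (ENSG00000198121.13, chr9:110873263-111038458, minus strand), the most widely expressed receptor of the family, was at 3.35, 4.13 and 4.07 in the shControl libraries and 0.772, 0.833 and 0.739 in the shMMP9 libraries. The group ranges were separate, and LPAR1 fell by 1.44 in log2 units (SE 0.13, adjusted p = 4.63e-07). LPAR2 (ENSG00000064547.13, chr19:19623668-19628930, minus strand), which many tumours express, was at 9.37, 10.5 and 10.3 in the shControl libraries and 4.53, 3.65 and 4.03 in the shMMP9 libraries. Every shMMP9 library was below every shControl library, and LPAR2 fell by 1.12 (SE 0.11, adjusted p = 1.58e-06). LPAR3 (ENSG00000171517.5, chr1:84811602-84893213, minus strand), which prefers unsaturated forms of the lipid, was at 34.6, 33.8 and 32.3 in the shControl libraries and 20.9, 21.8 and 18.1 in the shMMP9 libraries. LPAR3 fell by 0.71 (SE 0.08, adjusted p = 4.11e-06), the least of the 3. The summed level per kilobase went from 13.8 ± 0.26 to 7.27 ± 0.55 (SD, n = 3), again without overlap and with an exact permutation p = 0.1. Within that smaller sum, the share of LPAR3 went from 68.8% ± 2.09 to 78.6% ± 2.30, while LPAR1 went from 6.72% ± 0.74 to 2.59% ± 0.13 and LPAR2 from 24.4% ± 1.35 to 18.9% ± 2.33.

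**Figure D2:**
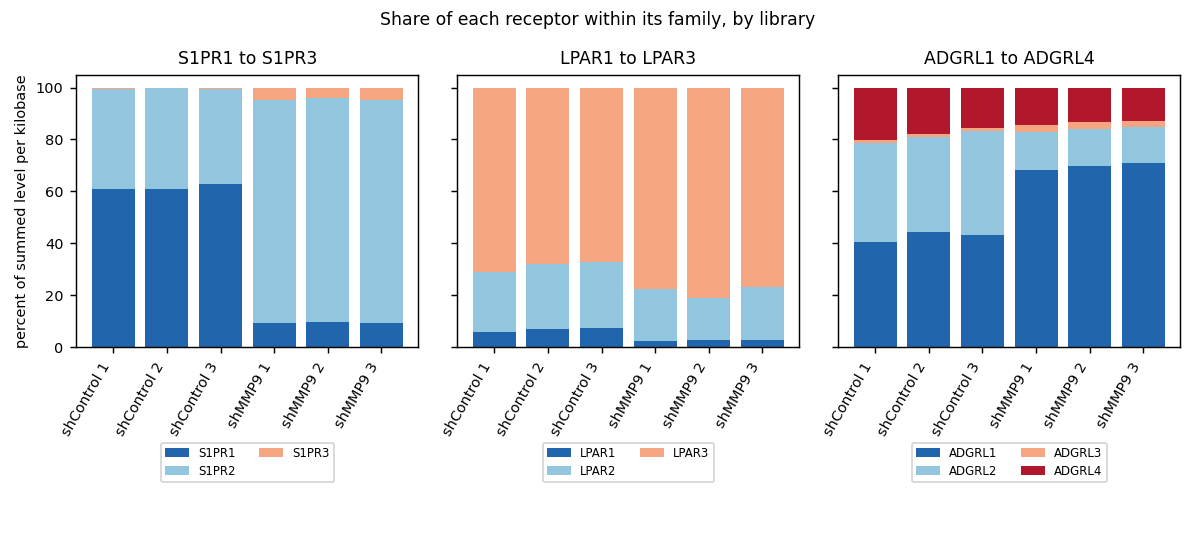
Percent of the summed level per kilobase of exons held by each receptor of the S1PR, LPAR and ADGRL families, 1 bar per library. S1PR1 fills 60.9 to 62.7% of the shControl bars and 9.16 to 9.52% of the shMMP9 bars, and ADGRL1 fills 40.5 to 44.5% of the shControl bars and 68.1 to 70.9% of the shMMP9 bars.

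Among the receptors for peptides and proteases, NTSR1 (ENSG00000101188.4, chr20:62708837-62762771, plus strand), the Gq-coupled receptor for neurotensin, had the largest rise of all tested receptors. Its level was 1.60, 2.44 and 2.35 in the shControl libraries and 31.6, 30.0 and 35.2 in the shMMP9 libraries. The mean in shMMP9 was 15.2 times that in shControl, and NTSR1 rose by 3.42 in log2 units (SE 0.12, adjusted p = 6.04e-11). F2R (ENSG00000181104.6, chr5:76716043-76735781, plus strand), the thrombin receptor also called PAR1, was the receptor of highest level per length in shControl. F2R was at 156, 154 and 147 in the shControl libraries and 49.7, 56.0 and 50.4 in the shMMP9 libraries. The ranges were far apart, and F2R fell by 1.53 (SE 0.06, adjusted p = 8.47e-11), with a shMMP9 mean 0.342 times the shControl mean. F2RL1 (ENSG00000164251.4, chr5:76818933-76835315, plus strand), or PAR2, which trypsin-like proteases activate, was at 10.1, 8.12 and 8.14 in the shControl libraries and 5.17, 4.56 and 4.69 in the shMMP9 libraries. F2RL1 also fell, by 0.75 (SE 0.12, adjusted p = 0.0001). The summed level per kilobase of both protease receptors went from 40.4 ± 1.47 to 14.4 ± 0.78 (SD, n = 3, exact permutation p = 0.1), and F2R held 92.7% of it in shControl and 88.7% in shMMP9.

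OXTR, the oxytocin receptor, fell by 0.52 (SE 0.15, adjusted p = 0.0095) from a mean of 2.81. BDKRB2, the bradykinin B2 receptor, was not called: its change was -0.05 with a 95% interval from -0.40 to 0.30, on means of 0.570 and 0.545, and this depth does not show whether it moved by less. ADORA2B (ENSG00000170425.3, chr17:15944917-15975746, plus strand), the low-affinity adenosine receptor that raises cyclic AMP, was at 23.0, 27.0 and 24.6 in the shControl libraries and 17.5, 18.002 and 18.1 in the shMMP9 libraries. The shControl and shMMP9 ranges did not overlap, and ADORA2B fell by 0.45 (SE 0.08, adjusted p = 0.000209).

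**Figure D3:**
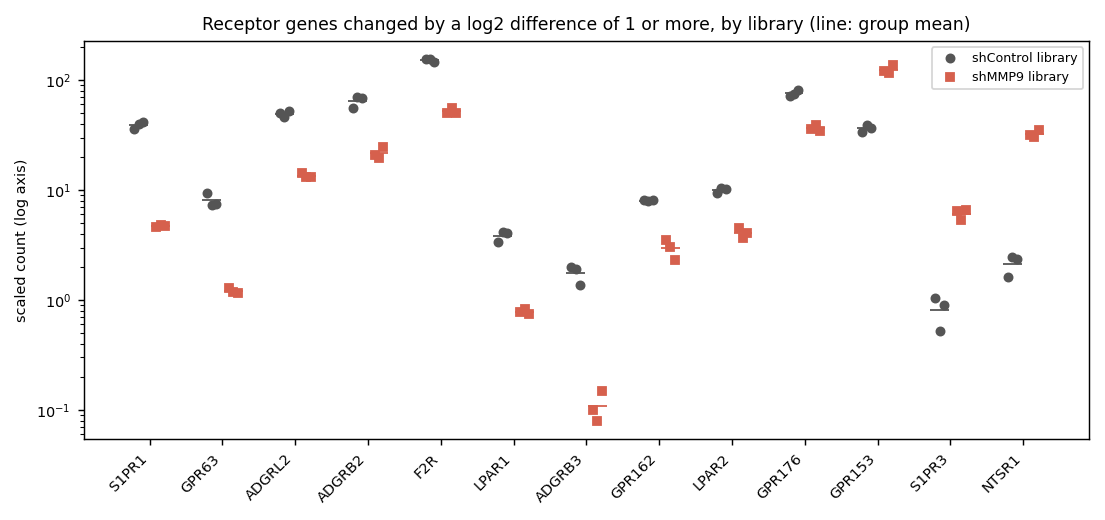
Scaled count in each library (log axis) of the 13 receptors called with a log2 change of 1 or more, with a line at each group mean. The 13 were chosen for their difference in these same libraries, so the lack of overlap between their groups follows from the choice. ADGRB3 is the weakest, at 0.0793 to 0.148 in the shMMP9 libraries.

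The adhesion receptors moved in both directions. Of 20 receptor genes, 17 were tested: 7 were higher (41.2%, beside 25% of all genes tested), 9 were lower (52.9%, beside 32.5%) and 1, ADGRG1, was not called. The shMMP9 libraries lay outside the shControl range for 16 of the 17 (94.1%), and for 62.7% of all genes tested. None of the rises reached a log2 change of 1, while 3 of the falls did, and the median change of the 17 was -0.22.

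ADGRL2 (ENSG00000117114.19, chr1:81306160-81992436, plus strand) is a latrophilin, a family that binds teneurins and FLRT proteins on neighbouring cells. Its level was 50.3, 46.2 and 51.9 in the shControl libraries and 14.2, 13.05 and 13.04 in the shMMP9 libraries, with no overlap between groups. ADGRL2 fell by 1.80 in log2 units (SE 0.07, adjusted p = 1.58e-10). The other members of the family did not all follow: ADGRL1 rose by 0.25 (adjusted p = 0.000804) on means from 60.5 to 72.2, and ADGRL3 rose by 0.54 (adjusted p = 0.00147) on means from 2.88 to 4.65. ADGRL4, named for its place in the family but known mainly from growing vessels, fell by 0.75 (adjusted p = 8.83e-05). Per kilobase, ADGRL1 went from 42.7% ± 2.07 to 69.6% ± 1.42 of the family sum and ADGRL2 from 38.2% ± 1.82 to 14.2% ± 0.48 (SD, n = 3, exact permutation p = 0.1 for each). The sum itself was 16.7 ± 0.32 in shControl and 12.2 ± 0.26 in shMMP9.

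ADGRB2 and ADGRB3 belong to the brain-specific angiogenesis inhibitors, receptors best known from synapses. ADGRB2 (ENSG00000121753.12, chr1:31727117-31764893, minus strand) was at 55.5, 69.4 and 69.0 in the shControl libraries and 20.8, 19.7 and 24.4 in the shMMP9 libraries, and fell by 1.54 (SE 0.09, adjusted p = 1.4e-08). The lowest shControl library was well above the highest shMMP9 library. ADGRB3 (ENSG00000135298.13, chr6:68635367-69389511, plus strand), which binds C1q-like proteins, was at 2.00, 1.92 and 1.38 in the shControl libraries and 0.101, 0.0793 and 0.148 in the shMMP9 libraries. ADGRB3 fell by 1.31 (SE 0.13, adjusted p = 2.04e-06) on 152 reads in the shControl libraries together and 9 in the shMMP9 libraries. Those reads give a shControl level 16.2 times that of shMMP9, with an exact 95% interval from 8.31 to 36.1 that covers counting error only. The interval takes the values as plain reads, although 1 is the lowest value that any library holds. The log2 difference is small beside that ratio because 1 is added to each scaled count.

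By the mean per kilobase over all 6 libraries, ADGRE5, ADGRG1 and ADGRA3 were the adhesion receptors of highest level. ADGRE5 and ADGRG1 led within each group too, but in shControl the next was ADGRB2, which fell, at 8.34 per kilobase, and ADGRA3 was at 6.38. ADGRE5 (ENSG00000123146.19, chr19:14380501-14408725, plus strand), also called CD97, a leukocyte and tumour receptor that binds CD55, was at 106, 119.6 and 122 in the shControl libraries and 160.3, 152 and 155 in the shMMP9 libraries. The shMMP9 libraries were all above the shControl libraries, and ADGRE5 rose by 0.43 (SE 0.06, adjusted p = 2.85e-05). ADGRA3 (ENSG00000152990.13, chr4:22345071-22516054, minus strand), or GPR125, was at 58.0, 57.3 and 61.7 in the shControl libraries and 87.0, 85.5 and 87.0 in the shMMP9 libraries. It rose by 0.55 (SE 0.05, adjusted p = 8.72e-07), again without overlap. ADGRG1 (ENSG00000205336.11, chr16:57610652-57665580, plus strand), or GPR56, a receptor studied in melanoma spread for its binding of transglutaminase 2, was at 148, 169 and 163 in the shControl libraries and 168, 165 and 181 in the shMMP9 libraries. Those ranges overlapped, and its change was 0.10 with a 95% interval from -0.02 to 0.23 (adjusted p = 0.151). ADGRG1 passed the threshold under both other scalings that were tried, and its adjusted p ran from 0.0239 to 0.450 over 15 settings.

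The remaining adhesion receptors changed by less than 1 on the log2 scale. The rises were those of ADGRE2, an immune receptor (0.70, adjusted p = 6.59e-05), ADGRV1, the very large receptor of hair cell stereocilia (0.67, adjusted p = 0.000653), and ADGRF1 (0.55, adjusted p = 0.000773). ADGRA2, which with RECK passes on WNT7 signals in brain vessels, fell by 0.78 (adjusted p = 1.98e-05). ADGRG5 fell by 0.93 (adjusted p = 0.000479), and ADGRD1 by 0.57 (adjusted p = 0.00695) from a mean of 0.785. ADGRG6, needed by Schwann cells to make myelin, fell by 0.32 (adjusted p = 0.000324), and ADGRE1, the human counterpart of a mouse macrophage marker, by 0.22 (adjusted p = 0.0109). The pseudogene ADGRF5P1 rose by 0.57 (adjusted p = 0.00177) on means from 0.289 to 0.909. Exons of ADGRA2 share 23.1% of their bases with BRF2 on the other strand and those of ADGRE2 share 15.7% with ZNF333. The strand setting of the counting is not given in the sources used here, so reads of such pairs cannot be told apart.

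The GPR-numbered genes as a group were near the background. Of 42 rows 36 were tested, and 9 were higher (25%), 10 were lower (27.8%) and 17 were not called. Their median change was -0.06, and 58.3% had groups that did not overlap. Individual members stood out.

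GPR153 (ENSG00000158292.6, chr1:6247346-6260975, minus strand), an orphan receptor, was at 33.6, 38.8 and 36.5 in the shControl libraries and 122, 116 and 136 in the shMMP9 libraries. Every shMMP9 library was above every shControl library, and GPR153 rose by 1.75 in log2 units (SE 0.07, adjusted p = 1.58e-10). Per kilobase it went from 8.89 ± 0.63 to 30.5 ± 2.56 (SD, n = 3), from the 10th to the 1st place among the 77 rows. F2R went the other way, from 37.5 ± 1.20 and the 1st place to 12.8 ± 0.86 and the 6th. NTSR1 moved from the 47th to the 12th place and S1PR1 from the 14th to the 36th, while ADGRE5, GPR108 and ADGRG1 held the 2nd, 3rd and 4th places in both groups.

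**Figure D4:**
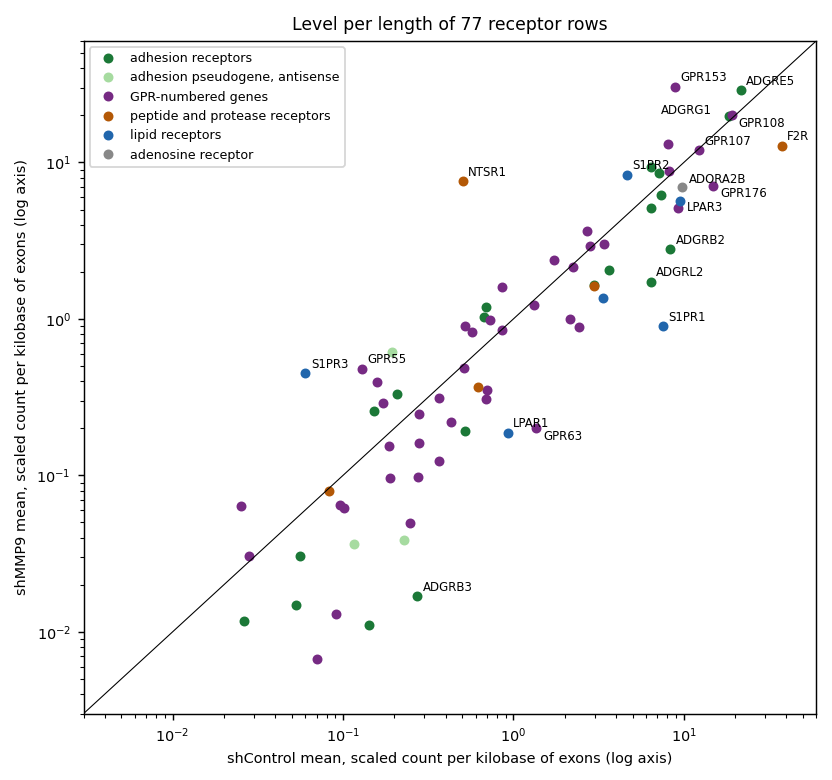
Mean scaled count per kilobase of exons of all 77 receptor rows in shControl (x, log axis) against shMMP9 (y, log axis), with a line where both are equal. F2R is rightmost at 37.5, GPR153 is highest at 30.5, and NTSR1 is far above the line at 0.503 against 7.62.

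GPR63 (ENSG00000112218.8, chr6:96794126-96837463, minus strand), an orphan receptor found mainly in brain, was at 9.41, 7.25 and 7.47 in the shControl libraries and 1.28, 1.19 and 1.15 in the shMMP9 libraries. GPR63 fell by 2.03 (SE 0.13, adjusted p = 1.93e-08), and the 3 shMMP9 libraries were close to each other. GPR162 (ENSG00000250510.7, chr12:6821545-6829972, plus strand), another orphan, was at 8.09, 7.96 and 8.03 in the shControl libraries and 3.53, 3.01 and 2.29 in the shMMP9 libraries. Its fall was 1.21 (SE 0.13, adjusted p = 3.75e-06), with no overlap. GPR176 (ENSG00000166073.10, chr15:39799032-39920892, minus strand), an orphan that acts in the circadian clock of the brain, was at 70.9, 74.5 and 81.4 in the shControl libraries and 35.7, 38.9 and 34.4 in the shMMP9 libraries. It fell by 1.04 (SE 0.07, adjusted p = 2.06e-08) and was the 5th of the 77 rows per kilobase in shControl and the 13th in shMMP9. Exons of GPR63, GPR162 and GPR176 overlap another gene over 3.75%, 3.46% and 2.598% of their bases.

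GPR108 and GPR107 are Golgi proteins that toxins and viral vectors use for entry, and by the mean per kilobase over all 6 libraries they came next after GPR153 among the GPR-numbered genes. The order differed within the groups: in shControl GPR108 (19.1 per kilobase), GPR176 (14.8) and GPR107 (12.3) were above GPR153 (8.89), and in shMMP9 GPR137 (13.1) was above GPR107 (11.98). GPR108 (ENSG00000125734.15, chr19:6729914-6737603, minus strand) was at 63.8, 60.2 and 59.7 in the shControl libraries and 64.8, 65.2 and 64.6 in the shMMP9 libraries. Its change was 0.08 with a 95% interval from -0.03 to 0.19 (adjusted p = 0.183), although all 3 shMMP9 libraries were just above the shControl libraries. GPR108 was called under both other scalings, and its adjusted p ran from 0.0343 to 0.387 over 15 settings. GPR107 (ENSG00000148358.19, chr9:130053426-130140169, plus strand) was at 109.8, 108 and 119 in the shControl libraries and 109.8, 111 and 107 in the shMMP9 libraries. The ranges overlapped, and the change of -0.04 had a 95% interval from -0.15 to 0.07 (adjusted p = 0.564).

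The rises under 1 on the log2 scale among the GPR-numbered genes were led by GPR55, a receptor for lysophosphatidylinositol. GPR55 rose by 0.96 (adjusted p = 1.58e-05) on means from 0.534 to 1.99. By ratio of means its rise, 3.72 times, was above the 3.43 times of GPR153. GPR158, a large receptor of neurons, rose by 0.82 (adjusted p = 6.23e-05), and GPR137, a lysosomal membrane protein, by 0.69 (adjusted p = 0.000318). GPR161, which restrains Hedgehog signalling at the primary cilium, rose by 0.41 (adjusted p = 3.74e-05). GPR75 rose by 0.47, GPR135 by 0.34 and GPR15, a homing receptor of T cells, by 0.32, with adjusted p-values of 0.0101, 0.0386 and 0.0485. Each of these 3 lost its call without certain single libraries. GPR75 lost it without shMMP9 replicate 1, at an adjusted p of up to 0.0538. GPR135 lost it without shControl replicate 1 or 3 or shMMP9 replicate 1 or 2, at up to 0.136, and GPR15 without shControl replicate 2 or 3 or any of the shMMP9 replicates, at up to 0.155. GPR89B rose by 0.43 (adjusted p = 0.00244), and its near-identical copy GPR89A had a change of -0.16 (adjusted p = 0.197). How the counting divided reads between these copies is uncertain, and so is the rise of GPR89B. Exons of GPR55, GPR137 and GPR158 overlap a gene on the other strand over 14.5%, 10.0% and 7.53% of their bases.

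Among the falls under 1 on the log2 scale, GPR37, a receptor linked to prosaposin, fell by 0.92 (adjusted p = 0.000156). GPR85, a conserved brain orphan, fell by 0.90 (adjusted p = 7.75e-05). GPR3, which raises cyclic AMP without an added ligand, fell by 0.81 (adjusted p = 3.31e-06) on means from 19.5 to 10.8. GPR132 fell by 0.73 and GPR160 by 0.69, with adjusted p-values of 0.00066 and 0.000279. GPR143, the receptor of the melanosome membrane and a gene of pigment cells, fell by 0.43 (adjusted p = 0.00949) from a mean of 0.683. By ratio of means, GPR132 (0.335) and GPR143 (0.357) fell further than GPR162 (0.367) and GPR176 (0.480). GPR143 passed the low-read filter through the shControl libraries alone, with 16, 26 and 17 reads there and 8, 7 and 5 in shMMP9.

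The other 14 tested GPR-numbered genes that were not called had changes between -0.32 for GPR4 and 0.31 for GPR146. GPR4, which senses protons, had an adjusted p of 0.0533 on a shControl mean of 0.873. GPR137B, a lysosomal relative of GPR137, had a 95% interval from -0.05 to 0.27, and GPR39, a zinc receptor, one from -0.33 to 0.19. GPR146 had 1 high shMMP9 library: its level was 1.85, 1.52 and 2.01 in the shControl libraries and 1.91, 1.75 and 4.202 in the shMMP9 libraries. An antisense gene covers 49.4% of the exon bases of GPR146. GPR17, GPR19, GPR62, GPR84, GPR137C, GPR155, GPR157, GPR173 and GPR180 were also among them, and all but GPR137B and GPR4 had groups that overlapped.

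The melanoma label was checked with 9 melanocyte lineage genes, of which 7, GPR143 among them, had a row. Their sum was 405 to 443 scaled counts in shControl and 804 to 883 in shMMP9, and it was nearly all SOX10, a transcription factor of the neural crest, at 378 and 785. MITF fell by 0.34 (adjusted p = 0.000666) on means from 35.5 to 27.7. S100B rose by 1.48 (adjusted p = 5.77e-09) on means from 9.46 to 28.1. The melanosome genes were weak: PMEL had means of 1.70 and 1.76, MLANA 0.102 and 0.392, and TYRP1 0.350 and 0.0703. TYR and DCT, the other listed genes, had no row. The leukocyte list had 4 of 12 genes with a row and summed to 115 to 137 in shControl and 99.0 to 102 in shMMP9, of which CD68 was 121 and 92.4. LYZ rose by 1.29 (adjusted p = 3.96e-07), while CD68 and CSF1R fell. The fibroblast list, with 9 of 10 genes, summed to 60.8 to 65.7 in shControl and 27.9 to 30.9 in shMMP9. In it PDGFRA rose by 1.05 (adjusted p = 9.95e-05), while the 6 other tested genes were lower (85.7%, beside 32.5% of all genes tested). The keratinocyte list, with 5 of 10, summed to 94.1 to 103 in shControl and 139 to 150 in shMMP9. Most of that was KRT10, at means of 71.6 and 112. KRT10 and KRT14 rose, while DSC3 fell and SFN fell by 1.62 (adjusted p = 2.03e-06). Of the 5 melanocyte genes tested, 40% were called higher and 40% lower, and of the 4 leukocyte genes 25% and 50%. For the 4 keratinocyte genes tested the shares were 50% and 50%. Among all genes tested they were 25% and 32.5%. The part of these markers in the receptor results was not tested.

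By level, the calls fell as follows. Of 12 rows with a mean scaled count under 1, 2 were higher and 3 lower, of 26 between 1 and 10, 8 were higher and 13 lower, and of 28 at 10 or more, 10 were higher and 11 lower. Among all genes tested the called shares in these ranges were 12.2% and 21.5%, then 20.6% and 34.5%, then 30.4% and 34.4%. By the ratio of mean scaled counts, which does not add 1, 6 called rows, ADGRF5P1 and GPR15 among them, were at least 2-fold higher (9.09%, beside 5.92% of all genes tested) and 17 at least 2-fold lower (25.8%, beside 9.76%). ADGRF5P1 and GPR15 passed the low-read filter through the shMMP9 libraries alone. ADGRB3 and GPR143, among the lower rows, passed it through the shControl libraries alone.

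Genes for proteins that act with or after the receptors also moved in both directions. Across 6 lists of signalling partners, 103 genes were tested, and 34 were higher (33.01%) and 44 were lower (42.7%), beside 25% and 32.5% of all genes tested. Their median change was -0.11.

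Among 23 subunits of heterotrimeric G proteins, 9 were higher (39.1%) and 8 were lower (34.8%), beside 25% and 32.5% of all genes tested. GNG2, a gamma subunit, was at 10.4 ± 0.706 in shControl and 44.1 ± 4.96 in shMMP9 (mean ± SD of 3 libraries, as in the values that follow) and rose by 1.98 (adjusted p = 4.88e-10). GNAL, the alpha subunit of smell receptors, was at 9.92 ± 0.841 in shControl and 1.69 ± 0.237 in shMMP9 and fell by 2.02 (adjusted p = 1.2e-08). GNA11, the Gq-class partner of receptors such as NTSR1, rose by 0.76 (adjusted p = 8.75e-08), and the gamma subunit GNG4 rose by 0.74 (adjusted p = 1.29e-07). GNAL lies on chromosome 18, where the median change of 259 tested genes was -0.42, and its fall was larger than that. None of the 77 receptor rows lies on chromosome 18, and 1, GPR180, lies on chromosome 13, where the median of 321 tested genes was 0.19. GPR180 itself was not called, at 0.06.

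RGS proteins speed the switching off of G proteins. Of 14 tested, 2 were higher (14.3%) and 8 were lower (57.1%), beside 25% and 32.5% of all genes tested. RGS2, which acts mainly on Gq, was at 7.12 ± 0.930 in shControl and 17.9 ± 0.983 in shMMP9 and rose by 1.22 (adjusted p = 2.98e-07). RGS4 was at 3.53 ± 0.486 in shControl and 0.800 ± 0.298 in shMMP9 and fell by 1.34 (adjusted p = 4.6e-06), RGS9 fell by 1.10 (adjusted p = 7.77e-07) and RGS10 fell by 0.73 (adjusted p = 4.87e-06). Receptor kinases and arrestins silence active receptors and carry them inside the cell. Of 11 tested, 3 were higher (27.3%) and 5 were lower (45.5%), beside 25% and 32.5% of all genes tested. The kinase GRK5 rose by 0.77 (adjusted p = 4.21e-06) and GRK6 fell by 0.69 (adjusted p = 7.82e-07). The arrestin ARRB2 fell by 0.75 (adjusted p = 1.37e-07), and the arrestin-like ARRDC3 rose by 0.88 (adjusted p = 1.23e-07).

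Of 16 tested effectors that act after G proteins, 7 were higher (43.8%) and 6 were lower (37.5%), beside 25% and 32.5% of all genes tested. ARHGEF11 was at 72.4 ± 3.48 in shControl and 126 ± 0.807 in shMMP9 and rose by 0.79 (adjusted p = 1.99e-08). PLCB4, a phospholipase downstream of Gq, was at 13.2 ± 1.30 in shControl and 5.53 ± 0.943 in shMMP9 and fell by 1.13 (adjusted p = 3.39e-06), while PLCB1, of the same family, rose by 0.50 (adjusted p = 0.000103). The catalytic subunit PRKACB of protein kinase A rose by 0.62 (adjusted p = 6.45e-06).

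Of 20 genes for ligands and ligand enzymes of the peptide and lipid receptors, 5 were higher (25%) and 9 were lower (45%). The shares of all genes tested were 25% and 32.5%. The members with the smallest adjusted p were not ligands. TFPI, which inhibits the tissue factor pathway that makes thrombin, was at 8.66 ± 0.689 in shControl and 1.29 ± 0.224 in shMMP9 and fell by 2.08 (adjusted p = 1.17e-08). TFPI2, a related inhibitor of serine proteases, was at 62.0 ± 0.594 in shControl and 151 ± 5.03 in shMMP9 and rose by 1.27 (adjusted p = 1.05e-10). ADA, which removes adenosine, was at 28.3 ± 0.671 in shControl and 8.57 ± 0.9499 in shMMP9 and fell by 1.62 (adjusted p = 4.49e-09), and NT5E, which makes adenosine outside the cell, rose by 0.49 (adjusted p = 4.24e-06).

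Of 19 tested genes reported to bind adhesion receptors, 8 were higher (42.1%) and 8 were lower (42.1%), beside 25% and 32.5% of all genes tested. The median size of a change was 0.93, beside 0.28 for all genes tested. FLRT2 and FLRT3, ligands of the latrophilins, rose by 2.07 and 1.83 (adjusted p = 1.66e-09 and 1.83e-09), on levels of 9.98 ± 1.64 in shControl and 44.9 ± 2.94 in shMMP9 for FLRT2. TGM2, the transglutaminase that binds ADGRG1, was at 821 ± 68.7 in shControl and 237 ± 10.0 in shMMP9 and fell by 1.78 (adjusted p = 5.58e-11). PRNP, the prion protein, a ligand of ADGRG6, was at 150.5 ± 6.29 in shControl and 376 ± 3.76 in shMMP9 and rose by 1.32 (adjusted p = 6.8e-11).

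**Figure D5:**
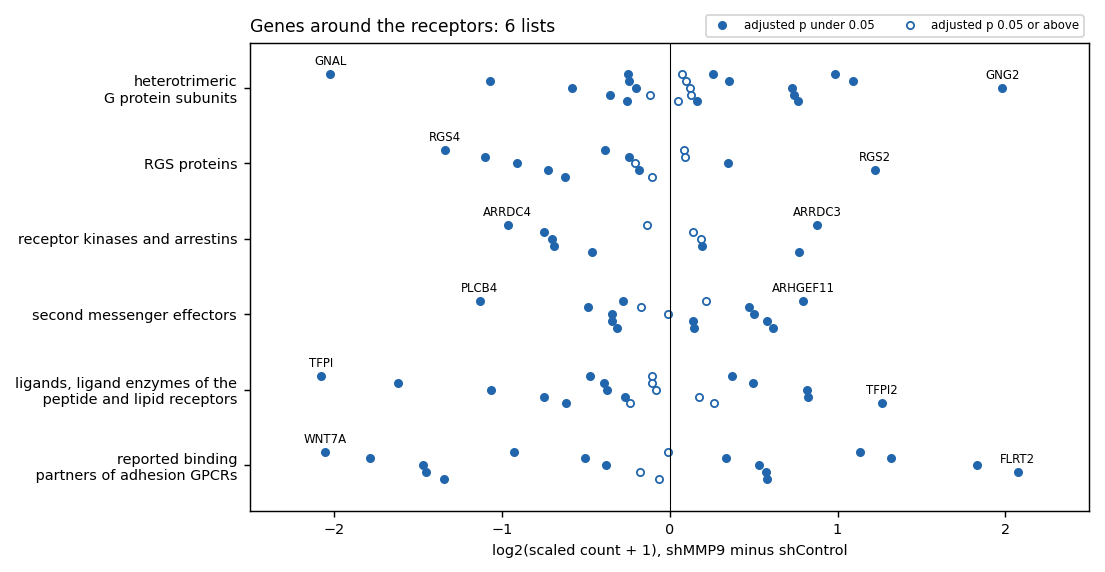
Difference of log2(scaled count + 1), shMMP9 minus shControl, of the 103 tested genes of 6 signalling lists, 1 point per gene; filled points have an adjusted p under 0.05 and the outermost genes are named. Each list has called genes on both sides of 0, from TFPI at -2.08 to FLRT2 at 2.07.

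Promoter windows of 250 bases before to 50 after the RefSeq start were found for 54 of the 77 rows. Both strands of each were searched for 6 short letter sets named after the factors known to bind them. The GC box, written GGGCGG, was in 37 of the 54 windows (68.5%), against 44.95% of all 35116 windows of the same length and 68.4% of the windows of genes tested here. The share of the receptors is thus near that of genes tested, but the 54 windows include 6 of rows that were not tested. The GC box was in 11 of 15 windows of receptors that were higher, 14 of 20 that were lower and 10 of 13 that were not called. For rows not tested it was in 2 of 6. AP-1 letters (TGANTCA) were in 7.41% of the receptor windows, 7.71% of all windows and 4.98% of those of genes tested. For TEAD, searched as GGAATG, the shares were 14.8%, 14.0% and 11.1%. A TATA box, searched as TATAAA, was in 7.41% of the receptor windows, 11.5% of all windows and 5.83% of those of genes tested. The E-box CACGTG was in 1 receptor window, that of GPR146, or 1.85% against 7.26% of all windows and 9.96% of those of genes tested. EGR letters, GCGTGGGCG, were in 1 receptor window too, that of GPR157, or 1.85% against 0.79% and 1.27%, and they can share bases with a GC box. In the printed runs, NTSR1 has GC boxes that begin 227 and 222 bases before the start and share a base, and S1PR2 has them 163, 49 and 14 bases before it. The windows of S1PR1 and S1PR3 hold none of the 6 letter sets. A match is a description of letters and not a site of binding.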

How the data were processed

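RNA of 6 A375 libraries (3 shControl, 3 shMMP9) was compared, with groups and replicate numbers taken from the labels. The authors used STAR 2.6.1d and Partek with hg38, per the submitters' processing notes. How reads were counted, and with which strand setting, is not given in the sources used here. Deposited values, although called counts, are on a log2 scale as log2(scaled count + 1): on the linear scale the 75th percentile was 45.3 to 45.4 in each library. The steps of the values gave estimated reads, and 64.5 to 67.8% of the gene values in a library were whole within 0.01 reads. The libraries held 21854113 to 28005538 estimated reads. As the deposited values were not raw counts, limma 3.58.1 in R 4.3.3 (variance trend) was run on them, with Benjamini-Hochberg adjustment over 17194 genes. The filter on low values asked for 10 reads, at the median depth, in at least 3 libraries and 15 over all libraries, and removed 1345 genes. A weak gene could thus pass through 1 group of 3 libraries alone. ADGRB3 and GPR143 passed through shControl, and GPR15 and ADGRF5P1 through shMMP9, in each case the group where they were higher. Their calls are therefore not independent of the filter.

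The receptor rule reads symbols only, but it, the gene lists and the tests were chosen with earlier results of these data known. Values in every library are given for receptors with an adjusted p under 0.05 and a log2 change of 1 or more, and for the 3 of highest level per length in each class (mean over all libraries), and from each signalling list the 4 genes with the smallest adjusted p are named. Other genes are given by count, range or change. Some receptors are in the counts but are not reported here by name. Positions, gene identifiers and exon lengths are from GENCODE release 29 on GRCh38, which matched all 77 rows by symbol. Promoter windows are from RefSeq, build GRCh38.p14, matched by symbol for 54. Shares within families were compared with exact permutation tests. Alternatives were a replicate block, each library left out, 2 other scalings, no low-read filter, limma-voom on estimated reads, no variance trend, a threshold of 0.01 and pseudocounts of 0.25 and 4. The test was checked on simulated data. Figures were drawn with matplotlib 3.10.9.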

Additional observations from a re-analysis of the deposited data

How the results depend on the processing

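Over 15 alternative settings, 17 to 22 receptor rows were called higher and 26 to 29 lower, beside 20 and 27 in the results above, and all counts stayed within 1.5 times of those. Leaving out 1 library gave 18 to 19 higher and 27 to 28 lower. With a replicate block, 19 were higher and 27 lower, and GPR15 was no longer called. The same numbers do not mark shared cultures in the labels, and the deviations of same-numbered libraries correlated at only 0.04, -0.13 and -0.03. Of 46 called receptor genes 42 kept their call and sign in all 15 settings, as did the pseudogene ADGRF5P1. The other 4 (ADGRE1, GPR15, GPR75 and GPR135) lost the call in some and kept their sign. Of 19 receptors not called, 6 were called in some setting, among them ADGRG1 and GPR108 under median-of-ratios and total-read scaling, and GPR4, GPR62 and GPR173 without certain libraries or the variance trend. Signalling genes called higher ran from 28 to 39 and lower from 38 to 45. The low-read filter leaves 11 receptor rows without a test at this depth.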
